A study of Mus musculus with 3 samples.

Results

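Glycolysis genes and genes that respond to low oxygen were followed through the cell types of the embryonic soft palate. The 30 genes were chosen by symbol, with earlier results of these data known, out of 32285 genes in the files. They are 14 enzymes of glycolysis, 3 genes that decide what becomes of pyruvate, 4 transporters of glucose or lactate, 7 hypoxia response genes and 2 subunits of collagen prolyl 4-hydroxylase. The level of each gene was read in gated cell types of each library, and osteogenic cells were set against the other mesenchymal cells.

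The libraries were made from the posterior palate of C57BL/6 embryos at E14.5, 2 from controls and 1 from Osr2-Cre;Alk5fl/fl embryos, here called the mutant. Alk5, also named Tgfbr1, encodes a TGF-β receptor, and Osr2-Cre deletes it in palatal mesenchyme. The study describes its controls as littermates with 1 or 2 floxed alleles of the receptor gene. The number of embryos behind each library was not given in the sources used here. The tissue was dissociated with an enzyme and captured in droplets, so that each transcript molecule was counted once by its unique molecular identifier (UMI).

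Glycolysis splits glucose into pyruvate, and lactate dehydrogenase turns pyruvate into lactate when it is not passed to the mitochondria. When oxygen is scarce, prolyl hydroxylases no longer mark the HIF-1α protein for destruction, and HIF-1 binds short motifs near genes of glycolysis, lactate export and mitochondrial adjustment. Bone-forming cells are known for a high use of glucose, and they secrete large amounts of collagen, whose prolines are hydroxylated by enzymes that are themselves HIF targets.

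The core of the HIF binding motif is ACGTG or GCGTG. Windows of 250 bases before to 50 bases after the transcription start were taken from RefSeq (GRCm38.p6) and searched for these letters on both strands, that is, also for CACGT and CACGC. The palindrome CACGTG matches ACGTG once on each strand and was counted as 2 matches. Of 27025 genes with a window, 21.8% held ACGTG and 46.7% held either motif. Of the 28 members with a window, 20 (71.4%) held ACGTG and 26 (92.9%) held either motif. Ndufa4l2 and Slc2a3 had no entry. The share with either motif was 16 of 18 among the members that were higher in osteogenic cells and 10 of 10 among the others. The windows of the 4 members with the largest rise in osteogenic cells that had an entry are shown. Matches are in capitals, and all 4 windows are from the plus strand. Ldha had 2 windows, of which the first listed is shown.
Slc16a3, chr11:120948817-120949116: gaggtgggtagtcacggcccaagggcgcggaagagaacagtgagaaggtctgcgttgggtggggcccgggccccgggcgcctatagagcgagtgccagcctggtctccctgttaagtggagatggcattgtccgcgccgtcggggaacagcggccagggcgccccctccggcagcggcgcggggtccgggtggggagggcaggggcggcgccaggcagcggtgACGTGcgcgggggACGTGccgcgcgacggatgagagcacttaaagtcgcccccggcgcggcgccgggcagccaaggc
Ldha, chr7:46845554-46845853: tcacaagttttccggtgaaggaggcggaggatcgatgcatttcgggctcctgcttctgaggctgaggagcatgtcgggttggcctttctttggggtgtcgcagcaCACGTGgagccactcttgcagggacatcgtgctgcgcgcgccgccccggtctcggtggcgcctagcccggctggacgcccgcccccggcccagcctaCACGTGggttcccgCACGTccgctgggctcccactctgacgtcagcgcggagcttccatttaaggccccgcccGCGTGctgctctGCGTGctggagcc
P4ha2, chr11:54100674-54100973: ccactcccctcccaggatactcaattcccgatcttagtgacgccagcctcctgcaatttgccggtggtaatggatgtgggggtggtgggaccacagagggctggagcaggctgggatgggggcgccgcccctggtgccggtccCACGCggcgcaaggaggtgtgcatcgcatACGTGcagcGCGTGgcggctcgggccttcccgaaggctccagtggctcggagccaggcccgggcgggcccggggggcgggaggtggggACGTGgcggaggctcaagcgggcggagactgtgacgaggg
Pgk1, chrX:106186850-106187149: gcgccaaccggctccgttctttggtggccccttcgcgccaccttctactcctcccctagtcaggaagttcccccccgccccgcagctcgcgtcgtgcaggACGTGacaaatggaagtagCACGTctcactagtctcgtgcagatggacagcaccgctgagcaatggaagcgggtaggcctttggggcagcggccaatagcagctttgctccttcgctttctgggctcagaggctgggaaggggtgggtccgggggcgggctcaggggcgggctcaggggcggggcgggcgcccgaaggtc
The window of Slc16a3 held ACGTG 2 times. In Ldha the count was 5 for ACGTG and 2 for GCGTG. P4ha2 held each motif 2 times, and Pgk1 held ACGTG 2 times. A match describes the letters of the window and is not evidence of binding.

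The 3 libraries held 2816, 4067 and 8690 barcodes and 22624711, 27814907 and 63505144 UMIs, in the order control 1, control 2 and mutant, which is the order of all values in triplets. After filtering, 2069, 3697 and 7547 cells remained. Between 18 and 49 barcode sequences were shared by a pair of libraries. Mesenchymal cells were gated by at least 2 of 6 markers such as Prrx1 and Twist1. Osteogenic cells also had a UMI of Sp7, a transcription factor that osteoblasts need, or UMIs of 2 bone matrix or mineral genes such as Ibsp. An Sp7 UMI was present in 97.5%, 99.1% and 95.2% of them. It was also found in 8.44%, 5.38% and 9.94% of epithelial cells. In myeloid cells the share was 6.45%, 0.962% and 0%, and in endothelial cells 8.11%, 1.08% and 4.4%. The part of such background in the gate was not tested. No member was used in a gate. Osteogenic cells numbered 122, 107 and 604, and other mesenchymal cells numbered 912, 2014 and 3069. In the same cells Smpd3, Dlx3, Alpl and Runx2, osteoblast genes outside the gate, were 5.21, 2.93, 2.26 and 1.92 higher on the log2 scale. Of the 16 further osteogenic genes 12 could be tested, and 10 rose, beside 8.69% of all genes.

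UMIs were added up within each cell type and library and scaled to a total of 1000000, and the scaled values are called CPM. The sums were compared by edgeR's quasi-likelihood test with a term for each library and Benjamini-Hochberg adjustment over all genes tested. A gene was called at an adjusted p under 0.05, and differences are given on the log2 scale with 95% intervals. The 3 libraries are the replicates. By genotype the mutant and control libraries came from different embryos, and nothing states that the 2 control libraries came from separate embryos. With the library term, the p-values weigh the difference between cell types against its variation over these 3 libraries. That variation is estimated with information shared across genes, so that an interval can be narrower than the spread of the libraries. For Ndufa4l2 the single libraries gave 2.24, 3.70 and 3.19, a wider spread than the interval given below.

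Osteogenic cells carried higher levels of most of the pathway. Of the 30 members, 19 were higher and 1 was lower than in other mesenchyme, beside 8.69% of 12441 genes called higher and 6.26% called lower. Another 8 members did not pass the threshold, and Car9 and Adm had too few UMIs to be tested. By role, 10 of 14 glycolytic enzymes, 2 of 3 genes of pyruvate fate, 2 of 4 transporters, 3 of 7 hypoxia response genes and both prolyl hydroxylase subunits were higher. Every osteogenic value lay above every value of other mesenchyme in 18 of the 30 members, against 5.96% of the genes tested. With no filter on low counts the median difference over all 30 members was 0.76, beside -0.14 over all 20762 genes of that fit.

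**Figure D1:**
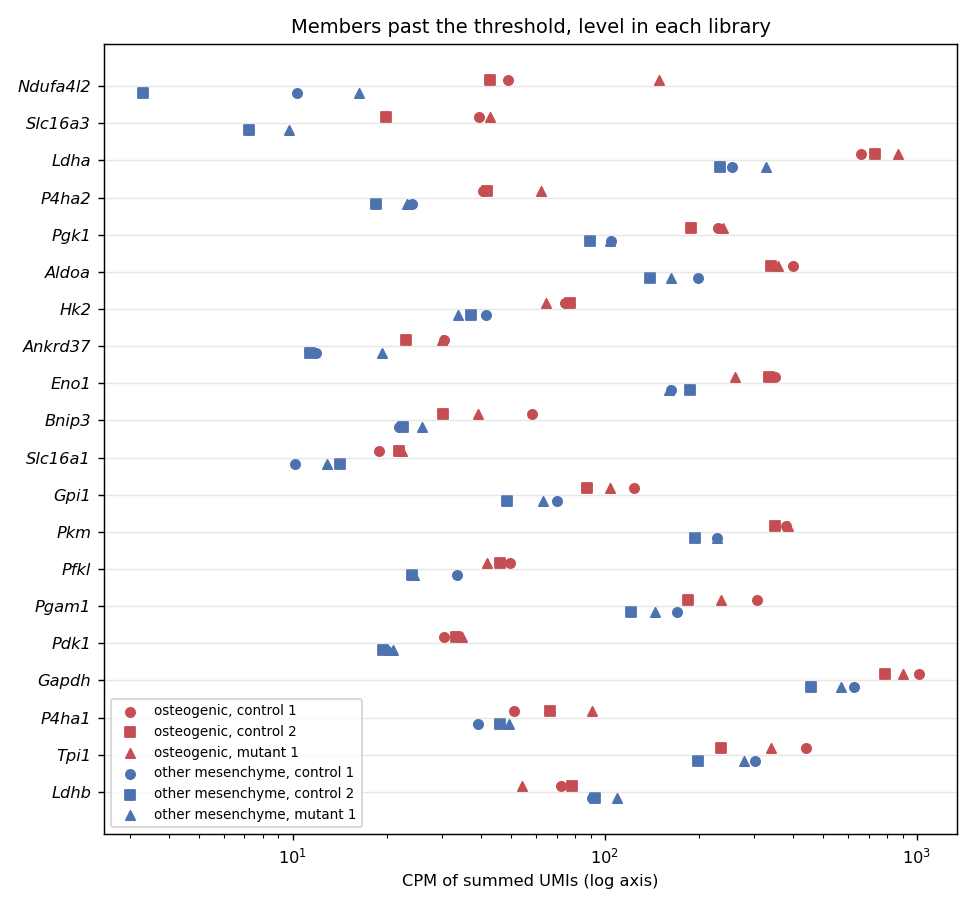
Each point is the CPM (log axis) of 1 of the 20 members past the threshold in 1 library, in red for osteogenic cells and blue for other mesenchyme, with circles for control 1, squares for control 2 and triangles for the mutant. The red and blue points do not overlap except for Tpi1, and Ldhb is the gene with red points to the left.

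The entry of glucose into the pathway was uneven among isozymes. Hk2, the hexokinase that traps glucose in the cell and is known as a HIF target, measured 74.4, 77.3 and 64.8 CPM in osteogenic cells and 41.5, 37.1 and 33.9 CPM in other mesenchyme. The groups did not overlap, and Hk2 was higher by 1.04 (0.82 to 1.26). Its relative Hk1 showed 8.75, 6.27 and 16.0 against 13.7, 9.82 and 11.9 CPM and did not pass the test. Gpi1, the isomerase of the next step, measured 123.9, 87.8 and 103.9 CPM against 70.2, 48.6 and 63.1 CPM, a difference of 0.88 (0.69 to 1.07). Of the 3 phosphofructokinases, which catalyse the committed step, only Pfkl was called. It measured 49.6, 46.0 and 42.0 CPM against 33.5, 24.2 and 24.5 CPM, a difference of 0.85 (0.59 to 1.11). The log2 intervals for Pfkm (-0.34 to 0.46) and Pfkp (-0.91 to 1.36) included 0, and Pfkp had at most 7 UMIs in the osteogenic cells of a library.

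Of the 8 enzymes that follow, 7 were called higher. Aldoc, the second aldolase, did not pass, with 1, 4 and 12 UMIs in osteogenic cells and an interval from -0.75 to 1.19. Aldoa, the aldolase that splits the sugar, measured 399.5, 339.6 and 359.1 CPM in osteogenic cells and 198.8, 139.2 and 162.9 CPM in other mesenchyme. Its difference was 1.23 (1.07 to 1.40). A second row of the files under the symbol Aldoa held at most 3 UMIs in these sums and was left out. Pgk1, which makes the first ATP of the pathway, measured 230.3, 188.1 and 238.4 CPM against 104.3, 89.7 and 103.8 CPM, a difference of 1.24 (1.06 to 1.42). For Pgk1 edgeR's quasi-likelihood test gave a Benjamini-Hochberg adjusted p of 9.6e-09. Eno1, an enolase, measured 350.6, 336.5 and 260.9 CPM against 163.0, 187.8 and 160.2 CPM, a difference of 0.97 (0.79 to 1.15). A near-identical copy, Eno1b, shares sequence with Eno1, so the split of reads between them is uncertain. Pkm, the pyruvate kinase, measured 379.1, 350.1 and 385.1 CPM against 228.1, 193.8 and 228.7 CPM, a difference of 0.87 (0.72 to 1.02). Gapdh, Pgam1 and Tpi1 were also higher, and the 5 called members outside the 14 largest, which include these 3, ranged from 0.46 to 0.82. Tpi1, with 439.6, 236.2 and 341.6 CPM against 302.7, 198.6 and 278.4 CPM, had the smallest difference and groups that overlapped. Gapdh, often used as a reference gene, measured 1012, 791.1 and 899.0 CPM against 627.0, 458.2 and 569.6 CPM.

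At the end of the pathway the subunits of lactate dehydrogenase moved apart. Ldha (chr7:46841475-46855627, plus strand), the subunit that favours lactate formation, measured 659.7, 734.6 and 868.7 CPM in osteogenic cells and 256.1, 234.0 and 327.3 CPM in other mesenchyme. The lowest osteogenic value was above the highest value of other mesenchyme. The difference was 1.56 (1.42 to 1.71), with a Benjamini-Hochberg adjusted p of 3.7e-11 in edgeR's quasi-likelihood test. Ldhb, the subunit that favours pyruvate, was the single member called lower. It measured 72.2, 78.4 and 54.1 CPM against 90.6, 93.0 and 109.7 CPM, a difference of -0.53 (-0.79 to -0.27). No osteogenic value of Ldhb reached the lowest value of other mesenchyme. That held for 1 of the 30 members and for 12.5% of the 12441 genes tested. The call of Ldhb was lost without the mutant library and by DESeq2. Pdk1, a kinase that inhibits pyruvate dehydrogenase, measured 30.6, 33.4 and 34.8 CPM against 19.96, 19.5 and 20.9 CPM.

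Both lactate carriers were higher, and neither glucose transporter passed the test. Slc16a3, or MCT4, the exporter of lactate that glycolytic cells use (chr11:120948480-120960868, plus strand), measured 39.4, 19.9 and 42.8 CPM against 7.26, 7.22 and 9.71 CPM. All 3 osteogenic values lay above the other mesenchyme, and the difference was 2.19 (1.83 to 2.55). Slc16a1, or MCT1, a lactate carrier of many cells, measured 18.9, 21.9 and 22.3 CPM against 10.2, 14.2 and 12.8 CPM, a difference of 0.88 (0.54 to 1.22). Slc2a1, or GLUT1, measured 11.7, 20.9 and 11.3 CPM against 12.8, 9.82 and 10.4 CPM, with an interval from -0.06 to 0.84. For Slc2a3, or GLUT3, the interval was -0.63 to 0.74. At these counts a rise of the size seen for Slc16a1 lies just outside the interval for Slc2a1.

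Of the 7 hypoxia response genes, 3 were higher, 2 did not pass and 2 could not be tested. Ndufa4l2, which replaces a subunit at complex IV and lowers mitochondrial oxygen use, showed the largest difference of the 30 members. It lies at chr10:127514967-127517154 on the plus strand and measured 48.8, 42.8 and 148.7 CPM in osteogenic cells and 10.3, 3.30 and 16.2 CPM in other mesenchyme. The difference was 3.15 (2.79 to 3.51), with a Benjamini-Hochberg adjusted p of 4.6e-10 in edgeR's quasi-likelihood test. In myeloid cells Ndufa4l2 showed 18.9, 1.43 and 0 CPM, and in control 1 the level of other mesenchyme was below the myeloid level. Bnip3, which takes part in the removal of mitochondria, measured 58.3, 30.3 and 39.3 CPM against 21.9, 22.6 and 25.96 CPM, a difference of 0.91 (0.57 to 1.24). Ankrd37 measured 30.6, 23.0 and 30.1 CPM against 11.9, 11.4 and 19.4 CPM, a difference of 0.99 (0.65 to 1.34). Vegfa, the angiogenic factor, measured 24.8, 14.6 and 13.99 CPM against 26.7, 13.99 and 13.5 CPM and did not pass, nor did Egln3, an oxygen-dependent prolyl hydroxylase, with at most 14 UMIs in the osteogenic cells of a library. Car9 had 1, 0 and 0 UMIs in osteogenic cells and Adm had 0, 1 and 3, so that no difference was detectable at this depth.

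The prolyl hydroxylase subunits that shape collagen were both higher. P4ha2 measured 40.8, 41.8 and 62.3 CPM in osteogenic cells and 24.1, 18.4 and 23.2 CPM in other mesenchyme, and its difference was 1.30 (1.001 to 1.594). P4ha1 measured 51.0, 66.9 and 90.9 CPM against 39.2, 46.1 and 49.4 CPM, a difference of 0.77 (0.53 to 1.01). In both genes the mutant library held the highest osteogenic value.

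**Figure D2:**
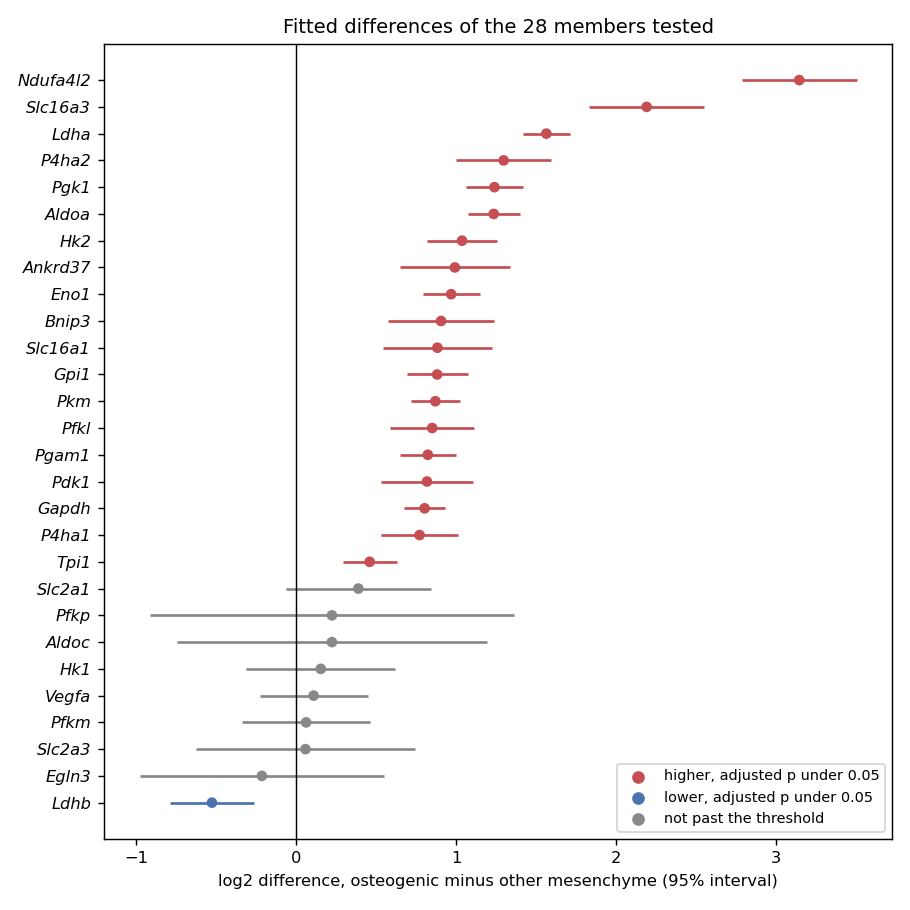
Points are fitted log2 differences of osteogenic cells from other mesenchyme for the 28 members tested, and lines are 95% intervals. The 19 red genes lie to the right of 0, from Tpi1 at 0.46 to Ndufa4l2 at 3.15, the blue gene is Ldhb, and the 8 grey genes have intervals that cross 0.

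The osteogenic cells also differed in depth and in the share of dividing cells. Their median UMI count was 9929, 7150 and 8520, against 7352, 5017 and 4772 in other mesenchyme, and 67.2%, 65.4% and 46.7% passed a gate for dividing cells against 57.1%, 47.1% and 36.6%. Within cells of 5000 to 15000 UMIs, 19 members were higher, beside 5.48% of genes, and with every gated cell thinned to 2000 UMIs 14 were, beside 3.03%. The count was 18 without dividing cells, beside 5.45% of genes, and 19 among dividing cells only, beside 7.38%. Thinning before the gate, which left 33, 35 and 142 osteogenic cells, gave 5, beside 0.614% of genes. Without the library term 6 were called, beside 0.699%. Scaling by total UMIs in place of TMM factors moved the median of all genes to -0.11 and turned the split of called genes from 1081 higher and 779 lower to 717 higher and 1198 lower, while 19 members stayed called higher and 1 lower. Of 17 genes known to respond to dissociation 16 were tested. Of these 7 were higher and 3 lower, beside 8.69% and 6.26% of all genes, with a median of 0.18. The part of these genes in the differences was not tested.

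Marker lists of other cell types were summed in the osteogenic cells. The 9 chondrocyte markers summed to 86.7 to 147.3 CPM in osteogenic cells, 70.1 to 111.0 CPM in other mesenchyme and 733.5 to 2794 CPM in chondrocytes, with no marker at 0 in the osteogenic cells. The osteogenic sum was the higher in each library, at 86.7 against 70.1, 147.3 against 71.1 and 118.4 against 111.0 CPM. Of 8 further chondrocyte genes 4 could be tested. Of these Sox6 (1.71) and Sox5 (0.84) were called higher, beside 8.69% of all genes. Their part in the members' differences was not tested. The 10 myeloid markers summed to 13.0 to 57.6 CPM against 11.2 to 68.7 CPM in other mesenchyme. The 11 epithelial markers summed to 9.49 to 83.8 CPM against 17.5 to 104.1 CPM, and the 11 myogenic markers, of which 2 were at 0, summed to 5.16 to 110.8 CPM against 12.8 to 129.7 CPM. Control 1 held the highest value of the last 3 lists in both groups of cells.

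Genes around the members were counted from lists of related pathways, beside 8.69% of all genes called higher and 6.26% called lower in the same fit. Of 24 other genes of glycolysis and glycogen use 22 were tested, and 5 were higher and 0 lower in osteogenic cells. They were the muscle-type mutase Pgam2 (2.27), the enolase Eno3 (1.89), Eno1b (1.79), Pdk3 (0.74) and Bsg (0.56), the chaperone of the lactate carriers. The level of Pgam2 was 2.92, 1.04 and 23.5 CPM against 6.70, 0.43 and 1.85 CPM, and control 1 went the other way. Of 30 other HIF-responsive genes 28 were tested. Of these 9 were higher and 3 lower, with Tpd52 (1.64), Ak4 (1.46), Bhlhe40 (1.30) and Ndrg1 (0.99) as the largest. The 3 lower genes were Car12 (-0.94), Angptl4 (-0.75) and Wsb1 (-0.52). The oxygen-sensing machinery itself showed 0 higher and 1 lower call among 13 genes tested of 14, and the lower call is near the share of all genes. It was Cited2, a competitor of HIF for its coactivator, with a difference of -0.78.

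Beside 8.69% and 6.26% of all genes, 5 of 23 genes of the citric acid cycle and pyruvate dehydrogenase were higher and 0 lower. Mdh2 (0.66), Pdha1 (0.54), Idh3a (0.53) and Suclg2 (0.51) led them, and the median over the list was 0.18. Among 13 genes of collagen modification, 5 were higher, among them the collagen chaperone Serpinh1 (0.63), and Loxl1 was lower (-0.44). The same shares of all genes, 8.69% and 6.26%, stand beside these counts. In simulated sums, edgeR recovered 30% of genes changed by 0.5 and 77% of those changed by 1 on the log2 scale.

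Within the osteogenic cells 16 of the 30 members were higher in cells with late markers. Cells with a UMI of Ibsp or Ifitm5, genes of late osteoblasts, numbered 56, 21 and 218 and are called maturing osteogenic cells, and the remaining 66, 86 and 386 are called osteoprogenitors. The counts were 16 higher and 0 lower, beside 7.74% and 5.1% of 7004 genes. At an unadjusted p under 0.05 the counts were 17 and 0, where 1822 genes passed in either direction. DESeq2 called 13 and 0, beside 2.94% and 1.14% of genes. Of the remaining members 6 did not pass and 8 could not be tested. All 10 tested glycolytic enzymes were higher, and 4 enzymes were too low to be tested. In control 1, UMIs of Ibsp or Ifitm5 were found in 22.6% of myeloid cells, which should lack these genes (median 9050 UMIs per cell), and in 45.9% of osteogenic cells (median 9929). In the other libraries the myeloid share was 0.962% and 3.52% (medians 5831 and 5148), against 19.6% and 36.1% of osteogenic cells. The part of free RNA in the split was not tested.

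The largest steps were in the genes that led the first comparison. Ndufa4l2 measured 79.2, 99.5 and 259.6 CPM in maturing cells and 18.8, 22.7 and 72.7 CPM in osteoprogenitors, a difference of 2.02 (1.69 to 2.35). Slc16a3 measured 61.6, 43.8 and 65.5 CPM against 17.4, 11.3 and 27.2 CPM, a difference of 1.55 (1.13 to 1.96). Neither gene overlapped between the groups. The smallest UMI count in a sum was 13 for Ndufa4l2 and 8 for Slc16a3, so that both sizes rest on few molecules. Pgk1 measured 300.5, 330.5 and 357.1 CPM against 160.9, 137.4 and 157.1 CPM, a difference of 1.23 (0.97 to 1.49). Ldha measured 872.2, 1306 and 1227 CPM against 449.5, 531.3 and 623.4 CPM, and for Aldoa the values were 530.7, 585.3 and 516.3 against 269.7, 252.2 and 251.4 CPM, with a difference of 1.18 for each. Ldhb and Pdk1 did not pass, with intervals of -0.48 to 0.36 and -0.35 to 0.52, and both were lower in maturing cells of control 1 and the mutant. The maturing cells were deeper, with medians of 10739, 11100 and 9495 UMIs against 9619, 6605 and 7622. The count of higher members was 13 within 5000 to 15000 UMIs, beside 4.69% of genes, and 9 after thinning each gated cell, beside 4.26%. It was 0 with thinning before the gate, where only 3 of 720 genes were called higher, and 5 without the library term, beside 0.899%.

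**Figure D3:**
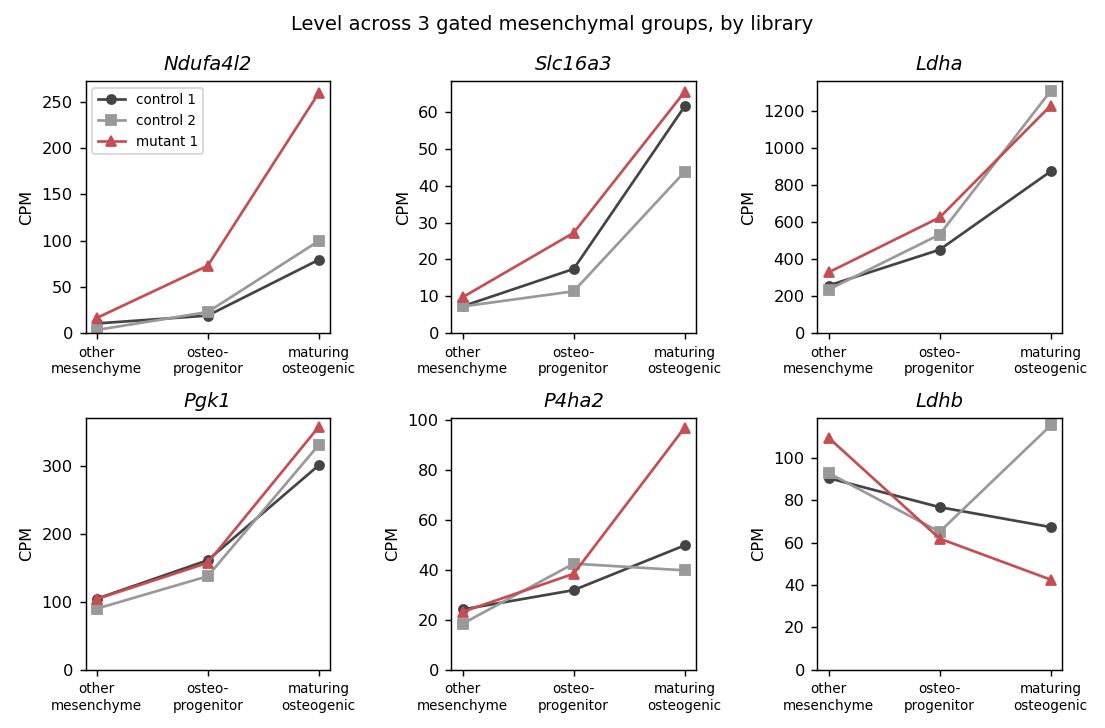
Lines join the CPM of 6 members in other mesenchyme, osteoprogenitors and maturing osteogenic cells of each library (axes start at 0). Ndufa4l2, Slc16a3, Ldha and Pgk1 climb in all 3 libraries, P4ha2 climbs throughout in control 1 and the mutant but not in control 2, and Ldhb falls throughout in control 1 and the mutant.

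Dividing and perimysial cells were compared within the rest of the mesenchyme. Between dividing and non-dividing cells of other mesenchyme, 1 member was higher and 3 were lower, beside 9.63% and 7.49% of 12343 genes. At an unadjusted p under 0.05 the counts were 1 and 10, where 3599 genes passed in either direction. DESeq2 called 0 and 1, beside 3.62% and 1.32% of genes. Gapdh was higher by 0.16, and Hk2 (-0.33), Aldoa (-0.32) and Ndufa4l2 (-0.57) were lower. The difference of Ndufa4l2 turned to 0.18 without the mutant library. The number of called members fell to 1 there and to 2 without control 2, beside 10.7% and 9.51% of genes against 17.1%. In perimysial cells, the connective tissue cells next to muscle that were gated by Hic1 and Ebf2 (76, 59 and 90 cells), 1 member was higher and 1 lower than in the remaining mesenchyme, beside 2.24% and 1.23% of 11578 genes. Egln3 measured 10.8, 19.3 and 12.9 CPM against 3.84, 3.53 and 3.09 CPM, a difference of 1.95 (1.12 to 2.78). Slc16a3 measured 1.55, 2.15 and 2.57 CPM against 7.82, 7.43 and 10.0 CPM. It entered the test through the remaining mesenchyme, so that no size is given for it. Both genes had under 20 UMIs in the perimysial cells of each library, so that the size for Egln3 also rests on few molecules. With at least 10 UMIs required in each sum neither was called. In each of the 3 fits that left out 1 library the call of Slc16a3 was lost, and that of Egln3 was lost only without the mutant.

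Other cell types were set against other mesenchyme in the same way. Chondrocyte-gated cells (24, 42 and 275 cells) showed 12 members higher and 0 lower than other mesenchyme, beside 1.31% and 0.66% of 12126 genes. At an unadjusted p under 0.05 these counts were 18 and 0, where 1174 genes passed in either direction. DESeq2 called 7 and 0, beside 0.8% and 0.214% of genes. Ndufa4l2 (2.72), Slc16a3 (1.62), Ldha (1.19), P4ha2 (1.119) and Aldoa (0.9996) led the 12 members called higher. Of these, Ndufa4l2, Slc16a3 and P4ha2 had under 20 UMIs in the chondrocytes of at least 1 library, so that their sizes rest on few molecules. Ndufa4l2 measured 34.5, 125.3 and 47.6 CPM in chondrocytes. Of the 16 osteogenic genes outside the gate 13 were tested in these cells, and 4 were also higher, beside 1.31% of all genes. They were Smpd3 (4.18), Vdr (3.68), Runx2 (1.55) and Cthrc1 (1.11), and their part in the members' counts was not tested. When osteogenic cells were compared with chondrocytes directly, edgeR called 0 of the 30 members, 0 had an unadjusted p under 0.05, and 6 could not be tested. The background of that comparison was 0.0671% higher and 0.302% lower of 8943 genes, and a difference was not detectable at this depth.

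Epithelial cells (225, 372 and 523 cells) had 21 members higher and 4 lower than other mesenchyme, beside 20% and 20.1% of 12912 genes. Ndufa4l2 (2.53) and Slc2a1 (2.23) were among them. Adm, a vasodilator peptide, Pfkp and Aldoc were called too, but they had at most 14, 30 and 35 UMIs in the other mesenchyme of a library, and Adm entered the test through the epithelial cells, where its level was 3.21, 4.33 and 5.44 CPM. Slc2a1 measured 53.5, 45.3 and 59.5 CPM in epithelial cells, against 11.7, 20.9 and 11.3 CPM in osteogenic cells. In the direct comparison 12 members were higher in osteogenic cells and 5 in epithelial cells, beside 14% and 14.8% of 11831 genes. Slc2a1 was 1.95 lower in osteogenic cells (log2 difference -1.95, interval -2.36 to -1.54), and the other members called lower included Adm, Aldoc and Pfkp, which had at most 3, 12 and 7 UMIs in the osteogenic cells of a library, so that no size is given for them. On the osteogenic side P4ha2 was higher by 1.60 (1.29 to 1.91). The total of 17 called members became 9 without the mutant library, beside 21.6% of genes called against 28.7%.

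Endothelial, myeloid, myogenic and neuronal cells followed. Endothelial cells had 9 members higher and 5 lower, beside 12.9% and 9.28% of 12182 genes. Among them Egln3 (1.97) and Slc2a1 (1.91) were higher and Ldhb (-1.65) and P4ha2 (-1.63) lower. Egln3, Slc2a1 and P4ha2 had under 20 UMIs in the endothelial cells of at least 1 library, so that their sizes rest on few molecules. Adm was also called, at 10.7, 6.49 and 4.08 CPM in endothelial cells, and it entered the test through those cells. Myeloid cells had 11 higher and 2 lower, beside 14.8% and 10.3% of 12019 genes, with Gpi1 (2.34) and Slc16a3 (2.28) highest. Their Gpi1 level was 207.4, 317.9 and 239.4 CPM. Slc16a3 had under 20 UMIs in the myeloid cells of at least 1 library. Myogenic cells had 10 higher and 1 lower, beside 12.9% and 8.8% of 11916 genes, with Egln3 (2.43), Eno1 (2.10) and Pgk1 (2.07) highest. Eno1 measured 455.8, 787.4 and 540.6 CPM in myogenic cells, above every osteogenic value. Neuronal cells had 4 higher and 0 lower, beside 6.96% and 1.79% of 12560 genes. They were Pfkp, Ndufa4l2 (3.01), Slc2a3 (2.80) and Ankrd37 (1.29). Pfkp had at most 30 UMIs in the other mesenchyme of a library and entered the test through the neuronal cells, so that no size is given. All 4 had under 20 UMIs in the neuronal cells of at least 1 library. With at least 10 UMIs required in each sum 0 members were called, beside 6.66% of genes. At an unadjusted p under 0.05 the counts were 9 and 3, where 2905 genes passed in either direction. DESeq2 called 3 and 0, beside 5.92% and 0.748% of genes. Egln3 in neuronal cells was 88.2 CPM in control 1 and 2.40 and 2.29 CPM in the others.

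The counts in small cell types changed when 1 library was left out, and the share of all genes called changed with them. Without control 1 the called members numbered 23 in endothelial, 20 in myeloid, 17 in myogenic and 8 in neuronal cells, beside 41.9%, 43.2%, 40.1% and 15.6% of genes, against 22.2%, 25.1%, 21.7% and 8.75% with all libraries. Without control 2 they numbered 5 in endothelial, 3 in myeloid and 5 in chondrocyte cells, beside 10.4%, 5.47% and 1.34%. Without the mutant they numbered 3 in endothelial and 4 in myogenic cells, beside 6.9% and 2.76%. Control 1 also held the highest epithelial, myeloid and myogenic marker sums above, and their part in these counts was not tested. Direct comparisons of osteogenic with myogenic cells called 5 members higher and 4 lower, beside 7.74% and 7.31% of 8910 genes. Among them Ndufa4l2, P4ha2 and P4ha1 (1.22) were higher and Egln3 and Gapdh (-1.11) lower. Ndufa4l2 and P4ha2 had under 20 UMIs in the myogenic cells of at least 1 library. Egln3 had at most 14 UMIs in the osteogenic cells of a library and entered the test through the myogenic cells. No size is given for these members. The total of 9 called members became 16 without control 1, 5 without control 2 and 3 without the mutant, beside 41.9%, 6.13% and 6.66% of genes, against 15.1% with all libraries. With myeloid cells 3 were higher and 2 lower, beside 8.22% and 14% of 8174 genes. Gpi1 (-1.46) and Gapdh (-0.98) were lower, and Ndufa4l2, P4ha2 and Slc16a1 were higher. Those 3 had under 20 UMIs in the myeloid cells of at least 1 library, and Ndufa4l2 entered the test through the osteogenic cells. No size is given for them. That total of 5 became 14 without control 1, 1 without control 2 and 0 without the mutant, beside 47.4%, 9.26% and 6.8% of genes, against 22.2% with all libraries.

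**Figure D4:**
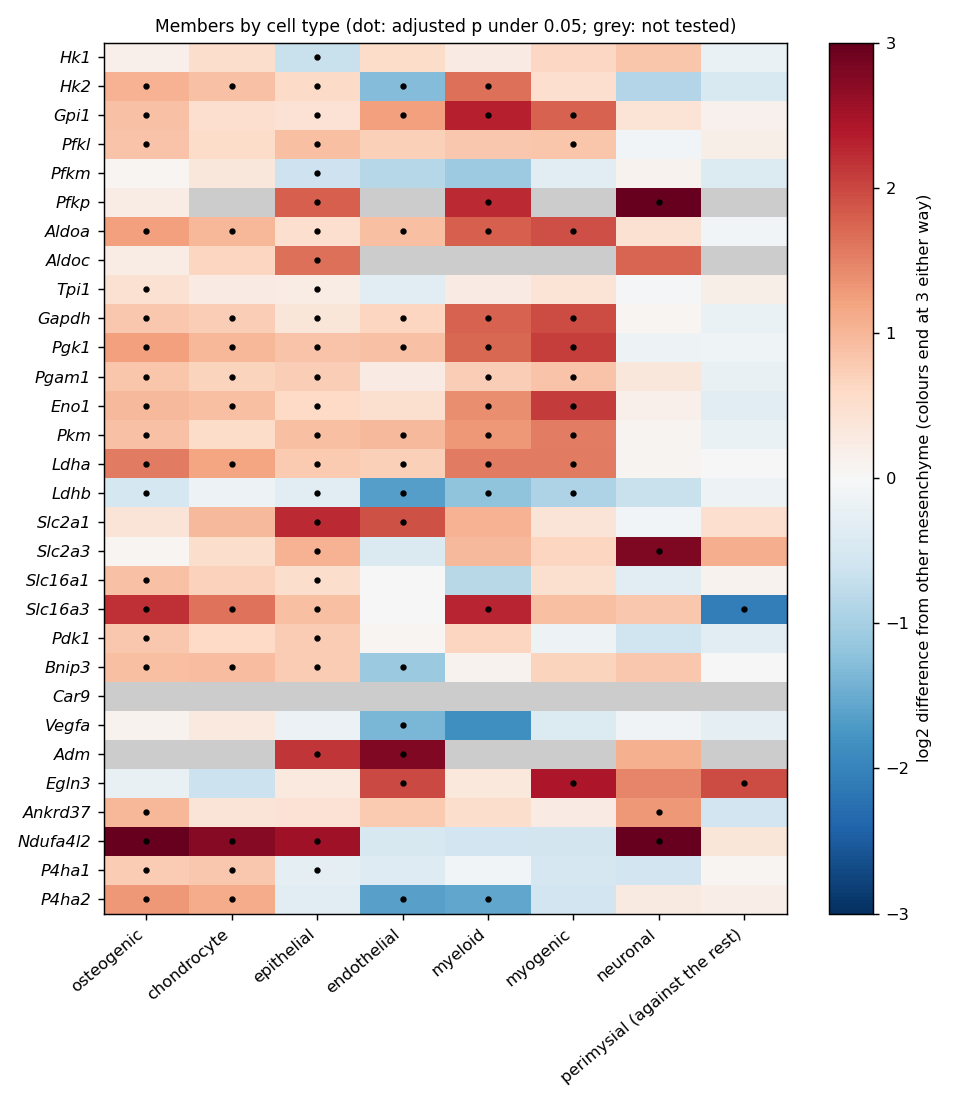
Colours give the log2 difference of each member in 8 cell types from other mesenchyme (perimysial cells from the remaining mesenchyme), dots mark adjusted p under 0.05 and grey marks members not tested. Ndufa4l2 is dark red in osteogenic (3.15), chondrocyte (2.72), epithelial (2.53) and neuronal (3.01) cells, and Slc2a1 carries a dot in epithelial (2.23) and endothelial (1.91) cells. Few UMIs lie behind the chondrocyte and neuronal sizes of Ndufa4l2 and the endothelial size of Slc2a1.

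Mutant and control libraries were compared by their values, since 1 mutant library allows no test. A member was described as past the gap when the mutant lay on one side of both controls and the log2 ratio of the mutant to the mean of the controls exceeded the log2 gap between the controls. Of the 30 members, 19 had at least 20 UMIs in the osteogenic cells of each library. Of these, 4 were higher past the gap and 4 lower, beside 8.52% and 25.7% of 5672 genes. Intervals in brackets are exact Poisson intervals at 95% and cover counting error only.

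Ndufa4l2 had the largest ratio in osteogenic cells. It measured 148.7 CPM (139.1 to 158.8) in the mutant, against 48.8 CPM (37.8 to 62.0) in control 1 and 42.8 CPM (30.7 to 58.1) in control 2. The log2 ratio was 1.70 and the gap between the controls 0.19. Within maturing osteogenic cells alone the ratio was 1.55 with a gap of 0.33, and in other mesenchyme it was 1.48 with a gap of 1.64. P4ha1 measured 90.9 CPM against 51.0 and 66.9 CPM, a ratio of 0.64 with a gap of 0.39, and P4ha2 measured 62.3 against 40.8 and 41.8 CPM, a ratio of 0.59 with a gap of 0.03. In the pooled osteogenic cells both collagen hydroxylase subunits were higher in the mutant by more than the controls differed. Among osteoprogenitors P4ha1 was also past the gap, with a ratio of 0.60 and a gap of 0.24. P4ha2 lay between the controls there, at 38.4 CPM against 31.9 and 42.5 CPM. Within maturing cells the ratio of P4ha1 was 0.56 with a gap of 0.94, and P4ha2 lacked 20 UMIs in each library. In the pooled osteogenic cells Ldha stood at 868.7 CPM against 659.7 and 734.6 CPM, a ratio of 0.32. Ldhb stood at 54.1 CPM against 72.2 and 78.4 CPM, a ratio of -0.47, and Eno1 at 260.9 CPM against 350.6 and 336.5 CPM, a ratio of -0.40. Maturing cells made up 45.9%, 19.6% and 36.1% of the osteogenic cells of the 3 libraries, and osteogenic cells 11.8%, 5.04% and 16.4% of the mesenchyme. The summed level of Ibsp and Ifitm5 in osteogenic cells was 478.9, 454.6 and 976.3 CPM, highest in the mutant as for Ndufa4l2, P4ha1 and P4ha2, and its part in their ratios was not tested. Genotype and library cannot be told apart here.

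**Figure D5:**
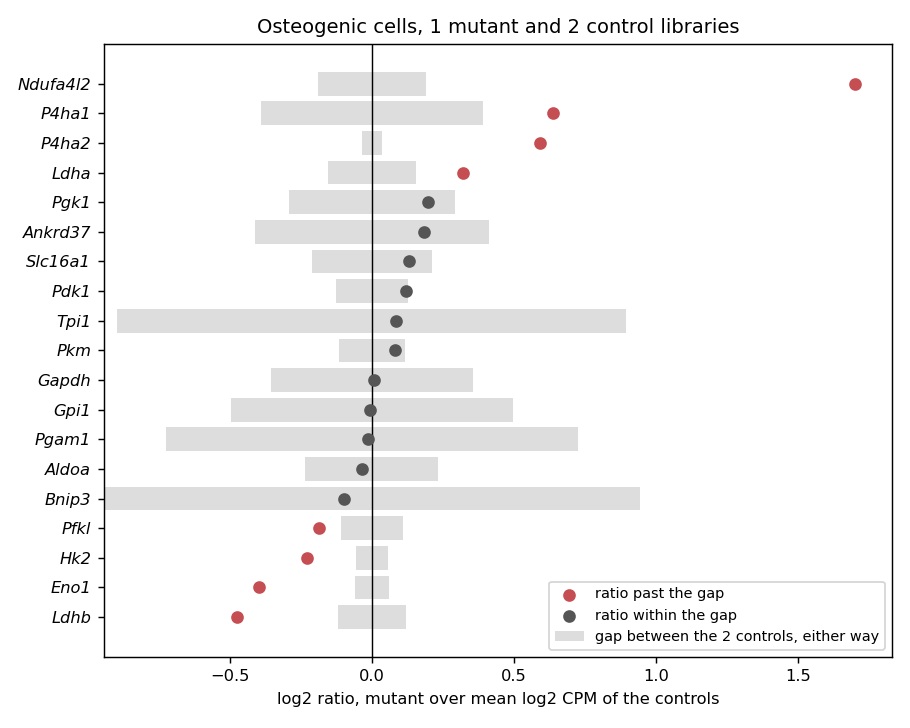
Points are log2 ratios of the mutant library to the mean log2 CPM of the 2 controls in osteogenic cells for 19 members, red points lie past the gap, and grey bars span the gap between the controls in either direction. Ndufa4l2 lies farthest out at 1.70, and 8 points lie outside their bars.

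Other mesenchyme held 26 members with at least 20 UMIs in each library, of which 6 were higher past the gap and 3 lower, beside 9.86% and 29% of 11370 genes. Ankrd37 measured 19.4 CPM in the mutant against 11.9 and 11.4 CPM, a ratio of 0.74. Slc16a3 measured 9.71 CPM against 7.26 and 7.22 CPM, and Ldha 327.3 CPM against 256.1 and 234.0 CPM, each with a ratio of 0.42. Egln3, Ldhb and Bnip3 had ratios of -0.29, 0.26 and 0.22. Ldhb thus lay on opposite sides of the controls in the 2 groups of cells, lower in osteogenic cells and higher in other mesenchyme. In epithelial cells, outside the mesenchyme, 12 members were higher past the gap and 3 lower, beside 9.2% and 28.5% of 9541 genes. Slc16a3 measured 23.4 CPM there against 15.7 and 8.89 CPM, a ratio of 0.99. In chondrocytes 0 of 9 members with enough UMIs were higher and 7 lower, beside 13.9% and 36% of 1573 genes. The 9 chondrocyte markers summed to 1176, 733.5 and 2794 CPM in these 24, 42 and 275 cells, and the part of that difference was not tested. Eno1 measured 196.8 CPM there against 370.4 and 480.5 CPM, a ratio of -1.10.

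The remaining types held fewer members with enough UMIs. In osteoprogenitors 4 of 14 such members were higher past the gap and 1 lower, beside 10.6% and 28.4% of genes, and in maturing osteogenic cells 2 of 14 were higher and 3 lower, beside 12.5% and 23.4%. In perimysial cells 1 of 11 was higher and 5 lower, beside 14.7% and 29.5%. In endothelial cells 1 of 10 was lower, beside 20.5%. Myeloid cells had 0 of 12 higher and 3 lower, beside 14.8% and 24.9%. Myogenic cells had 0 of 15 higher and 3 lower, beside 17.6% and 27%. Neuronal cells had 1 of 10 higher and 0 lower, beside 19.1% and 30.1%.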

How the data were processed

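Soft palate cells were captured with a 10x Genomics 3′ v2 kit. The authors deposited unnormalized UMI counts from Cell Ranger, 1 matrix per library. The extract protocol of the labels names version 4.0.0, the submitters' processing notes list version 3.1.0 and build mm10, and the role of each is not resolved. Groups were taken from the labels.

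Kept cells had at least 500 genes and at most 10% mitochondrial UMIs, and a preset share of the highest Scrublet scores (scanpy 1.11.5, 0.8% per 1000 barcodes) was removed as doublets. Cells were gated by UMIs of marker genes, at least 3 markers for each non-mesenchymal type. UMIs were summed per type and library and tested with edgeR 4.0.16 (TMM factors, filterByExpr, Benjamini-Hochberg over all genes tested). DESeq2 1.42.0 was an alternative. A type was tested with at least 20 cells in each library. The library term pairs sums that come from the same library: over genes with at least 20 UMIs in each sum, the deviations of osteogenic and other mesenchymal sums correlated at 0.72, 0.67 and 0.66. The members and lists were chosen with earlier results of these data known. On simulated counts edgeR recovered 60 of 200 genes changed by 0.5 and 154 of 200 changed by 1 on the log2 scale, with 9 and 16 false calls. Named genes were up to 14 called members with the largest osteogenic difference, up to 5 for each other comparison, up to 6 for the mutant and up to 4 for further lists. Named beyond that rule, after their values were seen, were Ldhb, the called members with smaller differences, members that did not pass, and Bsg, Car12, Angptl4, Wsb1 and Loxl1. The direct comparisons of osteogenic cells with other types, scaling without TMM, thinning after gating, the range of 5000 to 15000 UMIs and the fit on dividing cells only were chosen after seeing the data. Cells that passed more than 1 gate were left out, and the tests pooled control and mutant libraries. Of the gene identifiers, 32235 matched the GENCODE annotation of GRCm38, which gave the coordinates. Glial, mural, erythroid and granulocyte cells were not tested, since at least 1 library held under 20 cells of each.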

Additional observations from a re-analysis of the deposited data

Results flagged for a closer look

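Hk1 and Pfkp differed between osteogenic cells and other mesenchyme in one direction in both controls and in the other in the mutant, and the difference between the genotypes was not tested. For Hk1 the log2 difference was -0.65 in each control and 0.42 in the mutant, from 12, 6 and 96 UMIs in osteogenic cells. The control values of Hk1 thus rest on few molecules. For Pfkp the log2 difference was 0.80 and 1.27 in the controls and -0.57 in the mutant, from 3, 3 and 7 UMIs, which is too few to read a direction. The share of all genes that turned direction in this way is not given here, so the turn cannot be read as particular to these genes.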

How the results depend on the processing

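Of 400 differences of single members in osteogenic cells over 20 alternatives, 361 kept direction and call, 38 kept direction and lost the call, and 1 reversed, Slc16a1, at -0.22 with cells thinned before gating. In osteogenic cells the 19 higher members became 6 without the library term (no replicate block) and 5 with cells thinned before gating, which also lowered the median to 0.46, while mature markers alone raised it to 1.40. The shares of all genes called higher were 0.699% without the library term and 0.614% with thinning before gating, against 8.69%. The 1 lower member became 0 by DESeq2, without the library term, thinned before gating, within 5000 to 15000 UMIs and, in the fits that left out 1 library, which gave 0 to 1. The shares of all genes called lower were 2.44%, 0.0723%, 0.785% and 4.09% in turn, and 3.59% without the mutant, against 6.26%. The 16 members higher in maturing cells became 5 without the library term, 0 when thinned before gating, 9 when thinned after gating and 9 with 2-marker gates. The shares of all genes called higher were 0.899%, 0.417%, 4.26% and 4.33% in turn, against 7.74%. Library totals without TMM gave 344 higher and 686 lower genes in maturing cells against 542 and 357, with an all-gene median of -0.15.

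The 4 members called in dividing cells became 1 by DESeq2, 0 without the library term, 2 without TMM, 2 thinned before gating and 1 to 6 with 1 library left out, where Ndufa4l2 ran from -0.90 to 0.18. The shares of all genes called were 4.94%, 2.07%, 17.5% and 12.6% in turn, against 17.1%. With 1 library left out the share was 9.51% to 20.7%. The 2 perimysial calls became 1 by DESeq2, 0 with at least 10 UMIs in each sum, 0 without the library term, 1 without TMM, with looser cell filters, thinned before gating or with 2-marker gates, and 0 to 1 with 1 library left out. The shares of all genes called were 1.31%, 5.28%, 0.0605%, 3.17%, 2.59%, 0.791% and 3.54% in turn, against 3.46%. With 1 library left out the share was 2.0% to 2.87%. Without the library term the calls fell from 25 to 14 in epithelial and from 12 to 1 in chondrocyte cells, where DESeq2 gave 7. The share of all genes called fell from 40.1% to 16.0% and from 1.97% to 0.404%. By DESeq2 it was 1.01% in chondrocyte cells. With at least 10 UMIs in each sum, which tests fewer genes, the calls were 6 in endothelial and 0 in neuronal cells. Of all genes tested there 25.5% and 6.66% were called, against 22.2% and 8.75%. Leaving out 1 library gave 3 to 23 calls in endothelial, 3 to 20 in myeloid, 4 to 17 in myogenic, 3 to 8 in neuronal and 5 to 11 in chondrocyte cells. For osteogenic cells set against chondrocyte, epithelial, myogenic and myeloid cells it gave 0 to 1, 9 to 17, 3 to 16 and 0 to 14 calls. The share of all genes called ran over 6.9% to 41.9%, 5.47% to 43.2%, 2.76% to 40.1%, 3.93% to 15.6% and 1.23% to 3.68% in the first 5 comparisons. In the direct comparisons it ran over 0.123% to 0.835%, 21.6% to 27.6%, 6.13% to 41.9% and 6.8% to 47.4%. The library term changed no other count by over 1.5 times.

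In the mutant comparison the 4 lower members of osteogenic cells became 2 with TMM factors and 1 when thinned before gating. The 4 higher members became 2 when thinned, and the 3 lower members of other mesenchyme became 0 with TMM factors. Without these changes 25.7% of all genes were lower and 8.52% higher in osteogenic cells, and 29% lower in other mesenchyme. The shares of all genes under the changed settings are not given here, so these changes cannot be read as particular to the members. No paired analysis of mutant and control was possible, because there was 1 mutant library and the sample labels name no pairs. Where no value above shows a reason, the cause was not tested. Depth limits the calls of genes with few UMIs.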
